A study of Mus musculus with 6 samples.

Results

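The genes described here are transcription factors that give regions of the mouse forebrain their identity: Emx1, Emx2, Lhx2, Pax6 and Tbr1 of the dorsal telencephalon, and Otx1, Otx2, Six3 and Lhx5 of the rostral brain. The 9 were chosen by name, not by their values, and 6 of them were among the 12393 genes that the arrays represent, with 12 probe sets annotated to a single one of them. Emx1, Emx2 and Otx1 had none in the annotation used and were not analysed here. The samples were brains of Swiss Albino mouse embryos at E11.5, 3 from mothers made diabetic with streptozotocin, which destroys insulin-producing cells, and 3 from normal mothers. Each brain was hybridised to its own Affymetrix array. The brains of the diabetic group were malformed ones, so the effects of maternal diabetes and of malformation cannot be told apart, and no source used here says whether embryos shared a litter or how the brains were cut from the head. The arrays lie in 2 value tables of different chip types: replicates 1 and 2 of each group in the first, replicate 3 of each group in the second.

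As background, the forebrain is divided early by overlapping domains of homeodomain, paired, LIM and T-box factors. Six3 and Otx2 mark out the rostral neural plate, Lhx2 and Pax6 then give cortical progenitors their dorsal character, and Tbr1 is switched on as the first cortical neurons leave the cell cycle. Several of these genes also act in the eye, and Otx2 in the midbrain and the choroid plexus, so a level in whole brain sums over more than 1 site.

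Signals are linear intensities scaled to a common trimmed mean of 500, and each change is diabetic minus control on the log2(signal + 32) scale, taken within tables, which understates changes at low signal. Markers of neural tissue were well measured: all 12 neural progenitor and all 16 pan-neuronal genes listed passed the filter, a mean signal of at least 100. With 3 arrays in each group the precision is limited by their number. Limma p-values rest on the spread of these arrays around the fit, combined with that of all genes tested. Median deposited signals were 173 to 227 on diabetic and 165 to 222 on control arrays, the second table holding the lower ones. Limma, adjusted over all 8631 genes tested, called 0 genes (0%), with 655 (7.59%) at an unadjusted p under 0.05.

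No regional identity factor tested differed between diabetic and control brains past the test. Of the 5 members tested, 2 lay above 0 and 3 below, with a median log2 change of -0.02, beside 0.01 over all genes tested. Adjusted over all genes, limma gave them p of 0.793 to 0.983, and 0 of the 5 reached an unadjusted p under 0.05, against 7.59% of all genes. The number of members whose diabetic arrays all lay on one side of the control arrays in both tables was 0 of 5, against 22% of all genes. In whole-brain RNA, fewer cells of a type and less RNA per cell cannot be told apart.

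**Figure D1:**
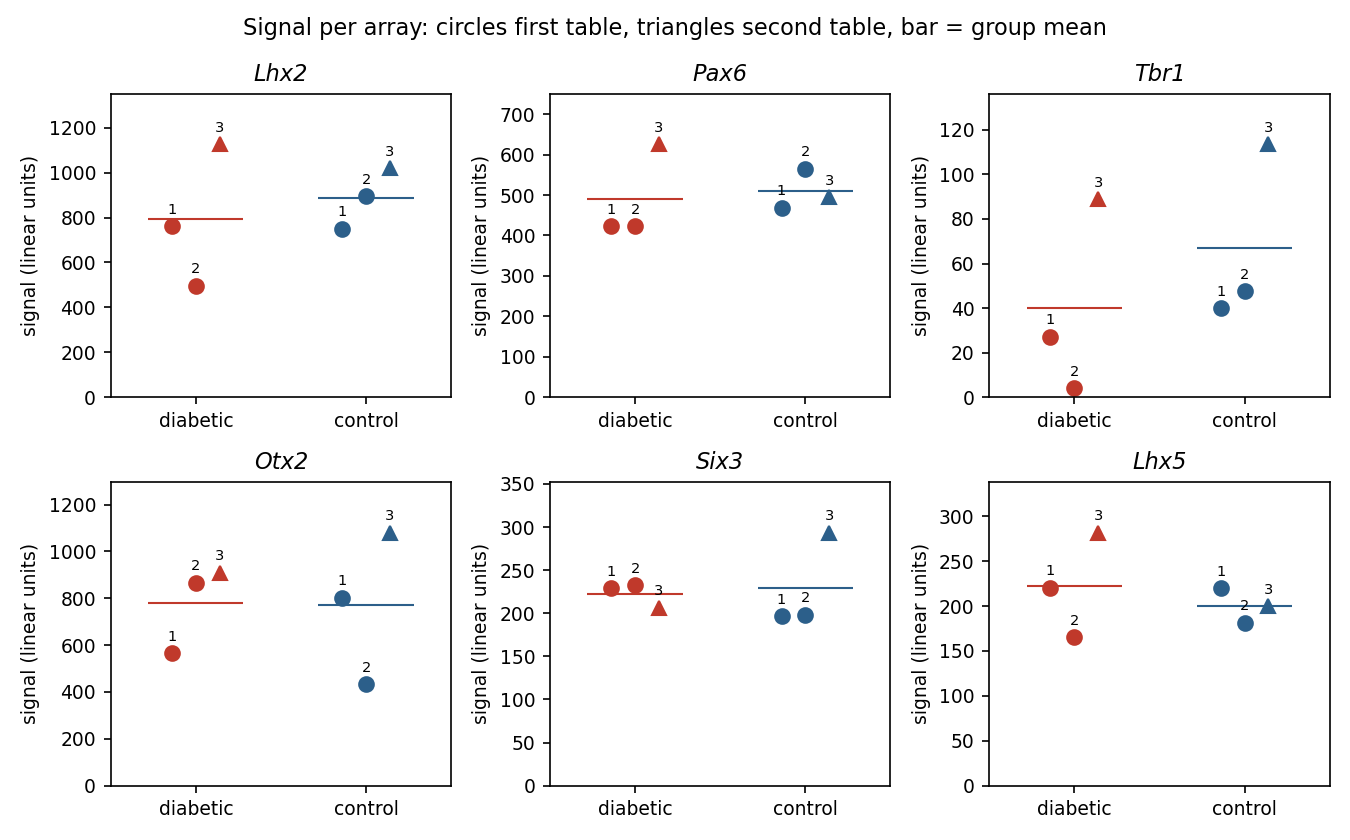
Signal per array (linear units, axis from 0) of the 6 members with a probe set, diabetic arrays in red on the left and control arrays in blue on the right, labelled by replicate number; circles are the first value table, triangles the second, and the bar is the group mean. Compared within a table, the groups overlap for Lhx2, Otx2 and Lhx5 in the first table, and Pax6 and Six3 differ in opposite directions in each table.

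Lhx2, a LIM homeodomain factor that holds cortical progenitors to a cortical fate, had signals of 761, 495 and 1127 on diabetic replicates 1 to 3, against 749, 894 and 1021 on control replicates 1 to 3. Diabetic replicate 2 was the lowest of the 6 arrays, and the other diabetic arrays lay within or above the control values of their table. The group means were 795 ± 317 in diabetic and 888 ± 136 in control brains (SD, n = 3 each). The log2 change was -0.22 ± 0.21 (SE), a ratio of 0.860 with a 95% interval of 0.624 to 1.19 (limma adjusted p = 0.793). Without diabetic replicate 2 the change was 0.0018, so the negative value rested on that array. The 2 diabetic arrays of the first table differed by 0.59, more than 90.0% of genes tested did, while the control pair differed by 0.25.

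Pax6, a paired-box factor of dorsal telencephalic progenitors and of the eye, had 422, 422 and 626 on diabetic replicates 1 to 3 and 468, 566 and 494 on control replicates 1 to 3. In the first table both diabetic arrays were below both controls, and in the second the diabetic array was above its control. The change was -0.07 ± 0.18 (SE, n = 3 each), a ratio of 0.953 with a 95% interval of 0.721 to 1.26 (limma adjusted p = 0.926). The first table gave -0.27 and the second 0.32, and the change was 0.06 without control replicate 2.

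Pax6 had 4 further probe sets, and the one of next highest signal, 1452526_a_at, had the same pattern: both diabetic arrays below both controls in the first table, and the diabetic array above its control in the second. It read 225, 167 and 279 on diabetic replicates 1 to 3 and 239, 299.5 and 173 on control replicates 1 to 3, a change of -0.07, from -0.41 in one table and 0.60 in the other. The remaining 3 had mean signals of 34.9 to 68.0, under the filter, and changes from -0.55 to 0.49 that differed in sign.

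Tbr1, the T-box factor of early-born cortical neurons, had the lowest log2 change of the 6 members, at signals too low for the test. It read 27.1, 3.95 and 88.8 on diabetic replicates 1 to 3, against 39.9, 47.6 and 114 on control replicates 1 to 3, a mean of 53.5 over all arrays. The diabetic arrays were below the controls in both tables, as were those of 9.08% of genes when no filter was set. Fitted without the filter over 12393 genes, the change was -0.57 ± 0.22 (SE, n = 3 each) with an unadjusted p of 0.0372 and a limma adjusted p of 0.753. In that fit 2.98% of genes were lower at an unadjusted p under 0.05. The change ran from -0.78 with a pseudocount of 16 to -0.37 with 64, and was -0.32 without diabetic replicate 2.

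**Figure D2:**
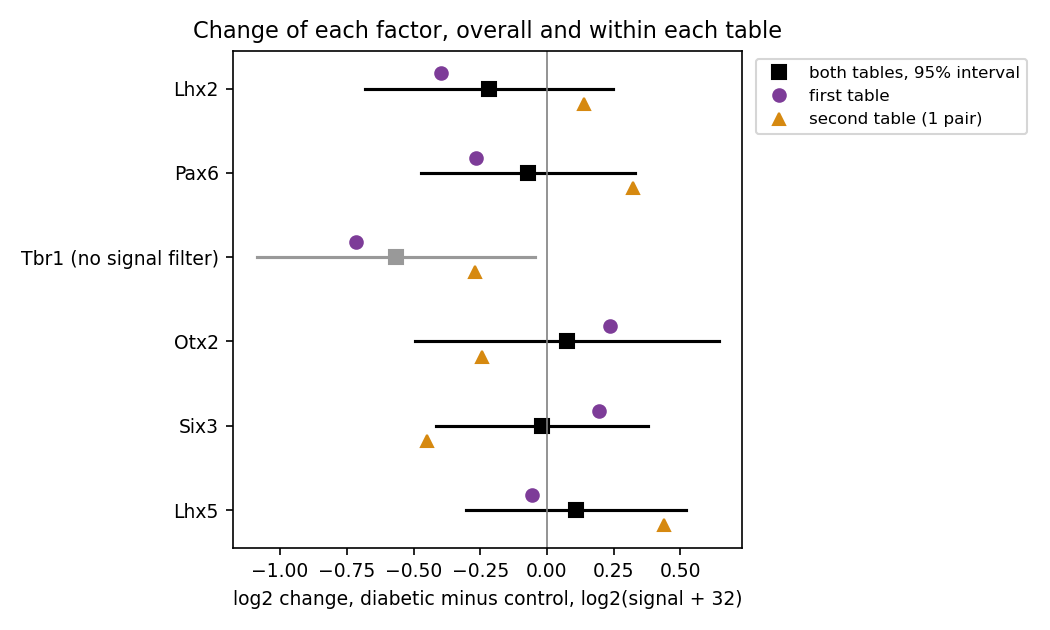
Log2 change, diabetic minus control, for each member (squares, with 95% interval) and within the first (circles) and second (triangles) value table; Tbr1 in grey comes from the fit without the signal filter. The intervals of the 5 tested members all include 0, and for each of these the circle and the triangle lie on opposite sides of 0.

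Otx2, a homeodomain factor needed for forebrain and midbrain and for the position of the midbrain-hindbrain border, had the widest difference between control arrays among the members. Its signals were 565, 866 and 908 on diabetic replicates 1 to 3, against 801, 432 and 1080 on control replicates 1 to 3. The 2 control arrays of the first table differed by 0.84 on the log2 scale, more than 97.5% of genes tested did, and the diabetic pair by 0.59, more than 90.0% did. The change of 0.08 ± 0.25 (SE, n = 3 each) was thus smaller than the spread within either group, with a ratio of 1.05 and a 95% interval of 0.710 to 1.56 (limma adjusted p = 0.946). It was -0.14 without diabetic replicate 2 and -0.21 without control replicate 2.

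Otx2 also works in the choroid plexus, whose carrier protein transthyretin, Ttr, read 121, 11.4 and 1251 on diabetic replicates 1 to 3 and 1149, 1114 and 3003 on control replicates 1 to 3. On diabetic replicate 2, the array lowest in Ttr, Otx2 was 0.53 above the control mean of its table. On diabetic replicate 1 Otx2 was at -0.06 from that mean, and on diabetic replicate 3 at -0.24 from the control of the second table. The first-table mean lay between Otx2 control signals of 801 and 432, and the relation of Otx2 to Ttr was not tested.

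Six3, a homeodomain factor of the rostral forebrain and eye field, had 229, 233 and 206 on diabetic replicates 1 to 3 and 197, 198 and 294 on control replicates 1 to 3. The 2 arrays of a group in the first table differed by 0.02 in the diabetic and 0.0080 in the control group, and the diabetic pair lay above the control pair by 0.20. In the second table the order was the reverse, with a change of -0.45. The overall change was -0.02 ± 0.18 (SE, n = 3 each), a ratio of 0.986 with a 95% interval of 0.749 to 1.30 (limma adjusted p = 0.983), and without replicate 3 of either group it was 0.20. The other 2 Six3 probe sets had mean signals of 20.4 and 6.82, where a change cannot be read.

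**Figure D3:**
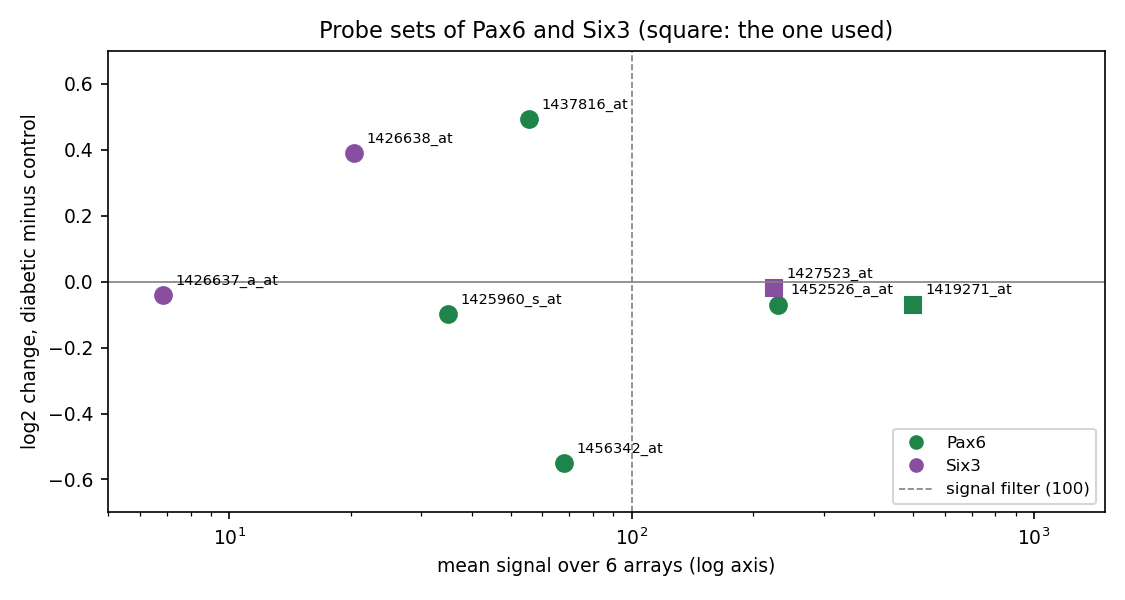
Log2 change, diabetic minus control, against mean signal over 6 arrays (log axis) for the 5 probe sets of Pax6 (green) and the 3 of Six3 (purple); squares are the probe sets used and the dashed line is the filter at 100. The 2 Pax6 probe sets above the filter both lie at -0.07, and the scatter from -0.55 to 0.49 is among probe sets below it.

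Lhx5, a LIM homeodomain factor of the diencephalon and of early-born Cajal-Retzius neurons, had 220, 165 and 282 on diabetic replicates 1 to 3 and 220, 181 and 199.5 on control replicates 1 to 3. The groups overlapped in the first table, and diabetic replicate 3 was the highest of the 6 arrays. The change was 0.11 ± 0.18 (SE, n = 3 each), a ratio of 1.08 with a 95% interval of 0.810 to 1.43 (limma adjusted p = 0.880). It was -0.06 in the first table, which is also the value without replicate 3 of either group, and 0.44 in the second.

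The changes of all 5 tested members had opposite signs in the 2 tables, 0 of 5 sharing their sign, where 51.5% of all genes tested did. The median over the members was -0.06 within the first table and 0.14 within the second. A limma interaction of group and table gave these members adjusted p of 0.740 to 0.894 and called 0 of 8631 genes (0%). The second table holds 1 array of each group, so its difference has no replicate of its own.

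Centred on each table's mean, Lhx2 and Pax6 had the smallest root mean square difference over the 6 arrays among the 10 pairs of tested members, 0.19 log2 units. Pax6 and Lhx5 came next at 0.20, and Lhx2 and Otx2 were farthest apart at 0.54. The members' own root mean square distances from their table means were 0.25 for Lhx2, 0.16 for Pax6, 0.32 for Otx2, 0.15 for Six3 and 0.18 for Lhx5. Pax6 and Lhx5 each lay closer to a flat profile than to each other, and Pax6 lay closer to a flat profile than to Lhx2. Each tested member had non-member genes that lay closer: Slc25a42 (0.032) and Myef2 (0.037) to Lhx2, Rngtt (0.026) and Apex2 (0.031) to Pax6, Armcx1 (0.050) and Cdcp1 (0.074) to Otx2, Rdh11 (0.019) and Tsen15 (0.023) to Six3, and Pus1 (0.026) and Clcn4 (0.038) to Lhx5. These are descriptions of 6 arrays across many genes.

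Among other forebrain regional factors, 17 of 32 listed genes were tested and limma called 0. Of these, 6 lay above 0 and 11 below, with a median of -0.03, beside 0.01 over all genes. The median was -0.16 to -0.05 as each array was left out, lowest without control replicate 1, with 10 to 12 genes below 0, and -0.22 at a mean signal of at least 200. Bcl11b, a zinc finger factor of deep-layer cortical neurons, read 33.4, 24.1 and 486 on diabetic replicates 1 to 3 and 329, 167 and 534 on control replicates 1 to 3. Diabetic replicates 1 and 2 were far below the controls of their table, and replicate 3 was close to its own. Its change was -1.47 ± 0.38 (SE, n = 3 each; limma adjusted p = 0.526), of which the first table gave -2.15 and the second -0.13.

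Pou3f3, a POU-domain factor of cortical progenitors and upper-layer neurons, had 0.74 ± 0.20 (SE, n = 3 each; limma adjusted p = 0.526), with diabetic signals of 294, 288 and 217 against control signals of 168, 234 and 73.6, and 0.49 in the first table. Lhx9, a LIM homeodomain relative of Lhx2, had -0.73 ± 0.28 (limma adjusted p = 0.646), -0.43 without diabetic replicate 2, and 0.11 in the second table. Its other probe set had 0.30, so the direction differed between probe sets. Gbx2, which borders Otx2 at the midbrain-hindbrain boundary, had a mean signal of 77.4 and was not tested.

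Factors of the ventral telencephalon, which dorsal factors such as Pax6 are known to oppose, had a median of -0.18 over 11 tested genes, 1 above 0 and 10 below, and limma called 0. Lhx8, a LIM homeodomain factor of cholinergic neurons, read 207, 192 and 480 on diabetic replicates 1 to 3 and 414, 387 and 580 on control replicates 1 to 3. All its diabetic arrays were below the controls of their table, with a change of -0.69 ± 0.18 (SE, n = 3 each; limma adjusted p = 0.526). Dlx1 had -0.58 ± 0.19 and Ebf1 -0.37 ± 0.19, which was -0.10 in the first table. Without diabetic replicate 2 the list's median was -0.04, with 8 of 11 below 0.

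Genes of the cortical neurogenic sequence, through which progenitors become Tbr1-expressing neurons, did not pass the test: limma called 0 of 9. Their log2 changes lay below 0 in 9 of 9, with a median of -0.38, but in 4 of 9, with a median of 0.02, without diabetic replicate 2. Insm1, a zinc finger factor of newborn neurons, had 650, 322 and 486 on diabetic replicates 1 to 3 and 989, 844 and 744 on control replicates 1 to 3, a change of -0.82 ± 0.24 (SE, n = 3 each; limma adjusted p = 0.560) and -0.52 without diabetic replicate 2. Reln, the secreted protein of Cajal-Retzius cells, had -0.38 ± 0.16 and Btg2, an antiproliferative gene of neurogenic divisions, -0.36 ± 0.19, which was -0.19 without control replicate 2. Neurog2 and Eomes, known to act downstream of Pax6 and named after their values were seen, had -0.52 ± 0.39 and -0.36 ± 0.29. The other Eomes probe set had -0.92 at a mean signal of 115.

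Diabetic replicate 2 was the lowest for that list, with a median of -1.17 from the control mean of its table, against -0.38 on diabetic replicate 1 and -0.09 on diabetic replicate 3. Neurog2 read 420, 148 and 923 on diabetic replicates 1 to 3, against 468, 659 and 624 on control replicates 1 to 3, and Eomes 340, 161 and 258 against 388, 449.6 and 186. Without diabetic replicate 2, Neurog2 and the Eomes probe set used had 0.02 each. On diabetic replicate 3, 5 of the 9 genes were below the control of its table. Of the members, Lhx2, Tbr1 and Lhx5 had their lowest signal of the 6 arrays on diabetic replicate 2. There they lay at -0.69, -1.07 and -0.24 from the control mean of the first table, while Pax6 was at -0.27, Six3 at 0.21 and Otx2 at 0.53.

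**Figure D4:**
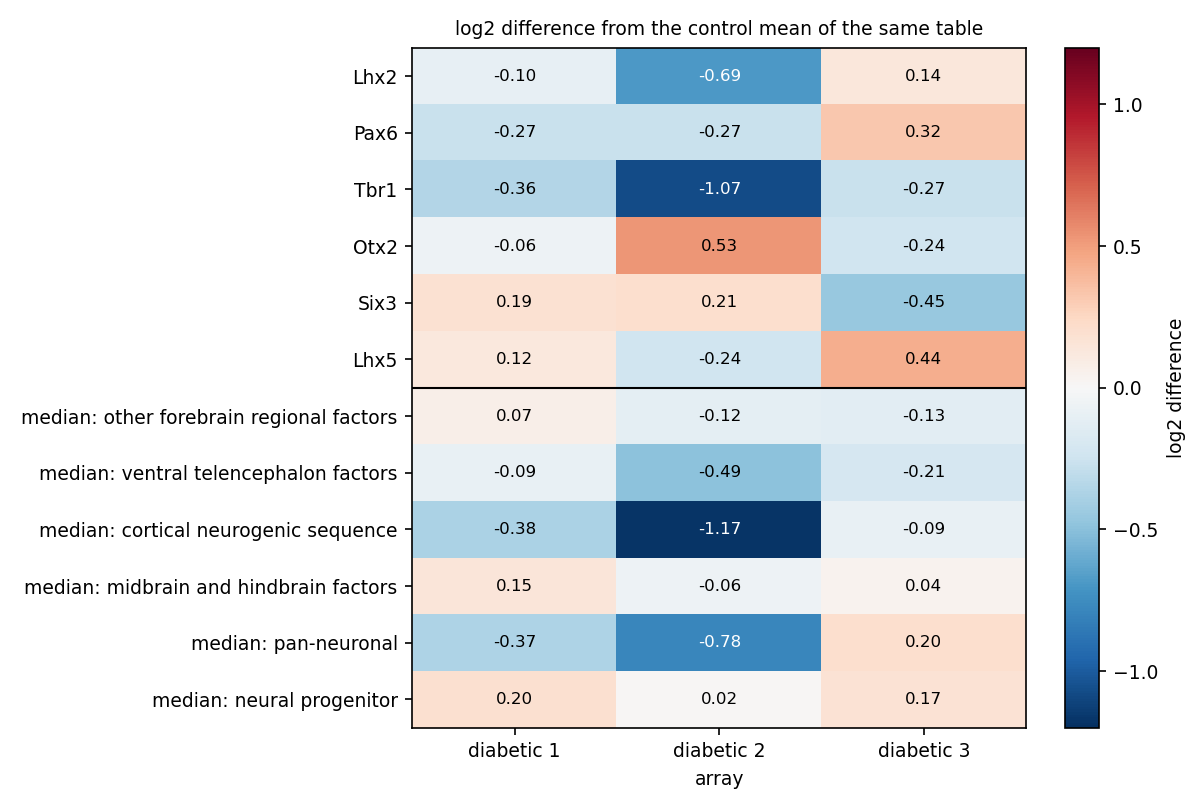
Log2 difference of each diabetic array from the control mean of its own value table, for the 6 members (above the line) and for the medians of 6 gene lists (below it), red for higher and blue for lower. Diabetic replicate 2 has the lowest values of Lhx2, Tbr1, Lhx5 and every list shown except the other forebrain regional factors. It has the highest values of Otx2 and Six3.

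Pan-neuronal genes were lowest on the same array: the summed signal of the 16 pan-neuronal genes was 19056, 13553 and 28700 on diabetic replicates 1 to 3 and 23862, 23772 and 24622 on control replicates 1 to 3. On diabetic replicate 2, 16 of 16 of them lay below the control mean, against 13 on diabetic replicate 1 and 5 on diabetic replicate 3. The list's median log2 change was -0.26, with 2 genes above 0 and 14 below, and limma called 0. Without diabetic replicate 2 the median was -0.0074, with 8 above 0 and 8 below. The summed signal of the 12 progenitor genes was 30735, 29715 and 29100 on diabetic replicates 1 to 3 and 25224, 30211 and 26900 on control replicates 1 to 3. The part of these shifts in the values of Lhx2, Tbr1 and the neurogenic genes was not tested.

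Partners through which these factors act were also measured. Of the LIM and Groucho cofactors, 12 of 15 were tested, 7 lay above 0 and 5 below with a median of 0.05, and limma called 0. The median was -0.06 without control replicate 1 and -0.03 without replicate 3 of either group. Ldb1, the adaptor that LIM homeodomain proteins such as Lhx2 and Lhx5 bind, read 1351, 1204 and 962 on diabetic replicates 1 to 3 and 880, 1029 and 601 on control replicates 1 to 3. All its diabetic arrays were above the controls of their table, with a change of 0.49 ± 0.16 (SE, n = 3 each; limma adjusted p = 0.609). Ssbp4, of the single-stranded DNA-binding family that associates with Ldb1, had 0.60 ± 0.18 (limma adjusted p = 0.575), and 0.38 in the first table. Tle4, a Groucho co-repressor, had -0.31 ± 0.15, against 0.02 for its other probe set.

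Signals that pattern the rostral brain and its borders had a median of 0.50 over 5 tested genes of 8 listed, 4 above 0 and 1 below, and limma called 0. Fgf17, Shh and Fgf8, secreted signals of the midline and of the rostral and midbrain-hindbrain borders, had 0.70 ± 0.15, 0.53 ± 0.19 and 0.50 ± 0.20 (SE, n = 3 each; limma adjusted p of 0.526 to 0.648). The other Fgf17 probe set had -0.0076 at a mean signal of 95.8. Shh read 146, 178 and 128 on diabetic replicates 1 to 3 and 84.9, 137 and 67.9 on control replicates 1 to 3. Fgf8 read 195, 166 and 85.1 on diabetic replicates 1 to 3 and 84.8, 159 and 51.9 on control replicates 1 to 3. On the control arrays alone Shh and Fgf8 had mean signals under 100, so both passed the filter through the diabetic arrays. The median of this list rests in part on them. Fgf8 had 0.29 without control replicate 1. Dorsal midline and choroid plexus genes had a median of -0.10 over 16 tested, 5 above 0 and 11 below, and limma called 0. That median was -0.01 without replicate 3 of either group, -0.17 without diabetic replicate 1 and -0.29 at a mean signal of at least 200. Beside Ttr, at -2.97 ± 0.55, Msx1 had -0.50 ± 0.19, which was -0.33 without diabetic replicate 2, and Wnt5a -0.46 ± 0.23, which was -0.28 in the first table.

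Because dissection may differ between brains, genes of neighbouring regions and tissues were set beside the members. Midbrain and hindbrain factors had a median of -0.03 over 14 tested genes, 6 above 0 and 8 below, limma calling 0, with 0.26 ± 0.17 for Pax8, -0.29 ± 0.21 for Hoxa2 and 0.18 ± 0.15 for Foxa2 (SE, n = 3 each). Without diabetic replicate 2 the values of Hoxa2 and Foxa2 were -0.12 and 0.10, and the list's median was 0.07. The list's summed signal was 6287, 5659 and 3994 on diabetic replicates 1 to 3 and 5543, 5698 and 4924 on control replicates 1 to 3. Eye and lens genes, markers of a tissue that shares Pax6, Six3, Otx2 and Lhx2, had a median of -0.13 over 6 tested genes. Their summed signal was 1183, 949 and 800 on diabetic replicates 1 to 3 and 1168, 1238 and 716 on control replicates 1 to 3. Their median was -0.01 without diabetic replicate 2, 0.07 with no signal filter and -0.31 at a mean signal of at least 200. Of the eye and lens genes tested, 2 lay above 0 and 4 below. The lens gene Crybb3, of smallest p among them, had 0.50 ± 0.18 (SE, n = 3 each, limma adjusted p = 0.620). It read 159, 197 and 90.2 on diabetic replicates 1 to 3 and 132, 88.7 and 63.6 on control replicates 1 to 3. The mean of its control signals was under 100, so it passed the filter through the diabetic arrays. Pmel and Mitf, next by p in that list, had -0.31 ± 0.26 and -0.15 ± 0.15. The lens genes Foxe3 and Crygs had mean signals of 10.3 and 9.47 and were not tested.

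Tissues around the brain gave these values. Mesenchyme and meninges genes had a median of -0.22 over 17 genes (2 above 0 and 15 below), with summed signals of 19638 to 21960 on diabetic and 21857 to 24208 on control arrays. Within each table the diabetic sums were below the control sums, at 19638 and 20300 against 21923 and 21857 in the first and 21960 against 24208 in the second. Olfactory and surface epithelium genes had a median of 0.03 over 11 (-0.09 to 0.13 as each array was left out). Their summed signals were 3834, 4115 and 2235 on diabetic replicates 1 to 3 and 3833, 3309 and 2593 on control replicates 1 to 3. Endothelial genes had a median of -0.0019 over 9 (-0.13 to 0.08). Their sums were 3320, 3101 and 2485 on diabetic replicates 1 to 3 and 3717, 3404 and 2072 on control replicates 1 to 3. Erythroid genes had a median of 0.17 over 6 (0.066 to 0.22, and 0.0077 with quantile normalization). Their sums were 48686, 56632 and 52118 on diabetic replicates 1 to 3 and 42036, 51229 and 49932.5 on control replicates 1 to 3. The part of these tissues and of dissection in the members' values was not tested.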

How the data were processed

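The authors deposited a linear intensity for each probe set and array, in 2 tables (MOE430A and Mouse430A_2 chips, per the file headers). Per the submitters' processing notes the software was GCOS, for which no version, algorithm or setting is stated in the sources used here. No detection calls were used. Per the file headers the 6 arrays had 6 distinct run days, so no day could serve as a block.

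Of 22690 probe sets per table, 64 are array controls, 20380 name 1 gene, 691 several and 1555 none; only the 1-gene probe sets were used. Signals of every array were brought to a trimmed mean of 500 (2% off each end), a change of at most 0.0363%. Each gene was taken from its probe set of highest mean signal over all arrays, and 8631 of 12393 genes had a mean signal of at least 100. Log2(signal + 32) was fitted with limma 3.58.1 in R 4.3.3 (lmFit, eBayes, value table as a block, two-sided, Benjamini-Hochberg, threshold 0.05). The fit had 3 residual degrees of freedom, to which limma added 6.37 prior ones estimated over all genes tested. On simulated data of 8631 genes for this comparison, 97% of 100 genes changed by 1 log2 unit were called, with 15 false calls among the unchanged genes. A further 100 genes were changed by 2 log2 units, and the noise was independent, normal and of the fitted size. The simulation therefore does not give the share of changes of 1 log2 unit that would be called in these brains.

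Members and gene lists were chosen with earlier results of these data known. Named were all members, up to 3 tested genes of smallest unadjusted p in each of the 7 lists of brain genes, and the 2 genes closest to each tested member. Marker lists of other tissues are given as medians and sums, with some eye and lens genes named. Coordinates are not given, since the values name no genome build.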

Additional observations from a re-analysis of the deposited data

How the results depend on the processing

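Limma called 0 genes and 0 members under all 18 alternative settings tried, with p adjusted over all genes; 16 of these are distinct fits, since leaving out replicate 3 of either group gives the fit of the first table alone. The count at an unadjusted p under 0.05, 655 as reported, was 97 with no block and 416 without control replicate 1. It was 846 in the first table alone and 880 with array weights. No tested member kept its direction throughout. Six3 had 0.20 in the first table alone and 0.054 with array weights, Lhx5 had -0.056 in the first table alone, and in the second table alone Lhx2 had 0.14, Pax6 0.32 and Otx2 -0.24; the cause was not tested. Leaving out each array in turn gave log2 changes of -0.40 to 0.0018 for Lhx2, -0.27 to 0.059 for Pax6, -0.21 to 0.27 for Otx2, -0.087 to 0.20 for Six3 and -0.056 to 0.26 for Lhx5. Chosen after seeing the data, the same settings gave -0.73 to -0.32 for Tbr1 without a signal filter, -1.04 to 0.017 for Neurog2 and -0.75 to 0.021 for Eomes over the arrays left out. Averaging all Six3 probe sets took the gene under the signal filter, so that alternative gave no value. With the replicate number as a block the log2 changes of the members were the same (-0.22 for Lhx2) and limma called 0 genes, with 633 at an unadjusted p under 0.05. Same-numbered arrays of the first table did not deviate together once group and table means were removed (r = -0.013 across genes), so the numbers were not taken as pairs. The median log2 change of all genes tested lay between 4.7e-05 and 0.023 in every fit. For arrays, low signal limits what can be read of Tbr1 and of the Pax6 and Six3 probe sets under 100.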
